A study of Mus musculus with 20 samples.

Results

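Between the second and the fourth day of GATA6 induction, chromatin accessibility changed in both directions among the regions that GATA6 binds. The comparison covers all 42403 GATA6 binding regions of the series (42403 of 42403), each with 1 accessibility value per group, and sets the group titled d4 (2 samples) against the group titled d2 (3 samples), 5 of 20 samples in all. Both groups are KH2 mouse embryonic stem (ES) cells, of C57BL/6 x 129/Sv background, which carry a doxycycline-inducible Gata6 transgene (GATA6-3xHA, clones G6.1 and G6.3) and were grown on embryonic fibroblast feeders in serum and LIF with doxycycline. The paper describes removal of feeders by adsorption for RNA-seq and ChIP-seq, and its ATAC-seq method does not name that step. The treatment labels give 72 h of doxycycline for the samples titled d2 and 96 h for those titled d4, and the titles are used here. A pair of other groups serves as landmarks, uninduced cells (d0) and XEN cells, a stem cell line from the early embryo that resembles the primitive endoderm. ATAC-seq uses the Tn5 transposase to cut and tag open DNA, so that a region with more short fragments is more accessible. The deposited values are averages over the libraries of a group in RPM, a read count scaled to library size to which the authors first added 1 read, not divided by region width, so that a region is compared with itself between days and levels are not compared between regions. In bulk samples, fewer cells with an open region and a less open region in every cell cannot be told apart.

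GATA6 is a zinc finger transcription factor that drives epiblast-like cells into the primitive endoderm (PrE), the first extraembryonic endoderm of the embryo, and can bind its motif in closed chromatin. It activates SOX17, an HMG-box factor, and acts in cells where OCT4, SOX2 and ESRRB still hold the enhancers of the pluripotency network. Every region carries the classes the study gave it: a GATA6 binding group (Early&Constant, Late or Transient), occupancy by pluripotency transcription factors (PTF) at d0, ectopically during induction or never, SOX17 binding, the chromatin state in ES cells, and whether GATA6 binding decreased or increased when Oct4 was knocked down. Apart from the accessibility class, which rests on d0, these classes were made from binding data or public ES cell data, so none of them used the d2 or d4 accessibility.

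Regions from among the 3 largest rises and the 3 largest falls are shown first, since they are the ends of the comparison. Each sequence is 200 bases of the mouse genome (mm10) around the best GATA6 motif of the region, 5′ to 3′ on the strand of the motif, with the motif in capitals. The region whose nearest gene start is that of Ptch1 had no scored GATA6 motif and is centred on its GATA6 summit. The rises were next to Tut4 (chr4:108448092-108448291, plus strand) and Lipc (chr9:70889714-70889913, minus strand), and the falls next to Ptch1 (chr13:63669126-63669325, plus strand), H2afy (chr13:56143203-56143402, minus strand) and Cdk5r2 (chr1:74825176-74825375, minus strand).
Tut4: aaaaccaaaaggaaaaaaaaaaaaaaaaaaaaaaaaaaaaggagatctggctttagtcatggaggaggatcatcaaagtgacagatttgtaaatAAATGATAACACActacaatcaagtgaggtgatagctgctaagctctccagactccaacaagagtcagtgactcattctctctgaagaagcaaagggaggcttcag
Lipc: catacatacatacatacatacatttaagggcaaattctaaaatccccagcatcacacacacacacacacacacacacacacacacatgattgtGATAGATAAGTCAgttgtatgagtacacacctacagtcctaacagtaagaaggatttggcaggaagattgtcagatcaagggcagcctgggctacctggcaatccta
Ptch1: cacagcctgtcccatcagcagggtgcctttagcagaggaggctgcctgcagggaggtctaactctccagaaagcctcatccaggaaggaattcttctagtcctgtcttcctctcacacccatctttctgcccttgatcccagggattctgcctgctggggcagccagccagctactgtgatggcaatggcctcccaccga
H2afy: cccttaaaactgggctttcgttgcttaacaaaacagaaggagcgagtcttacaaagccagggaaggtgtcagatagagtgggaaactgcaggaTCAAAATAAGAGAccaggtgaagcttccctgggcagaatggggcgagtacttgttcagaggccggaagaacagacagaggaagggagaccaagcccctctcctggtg
Cdk5r2: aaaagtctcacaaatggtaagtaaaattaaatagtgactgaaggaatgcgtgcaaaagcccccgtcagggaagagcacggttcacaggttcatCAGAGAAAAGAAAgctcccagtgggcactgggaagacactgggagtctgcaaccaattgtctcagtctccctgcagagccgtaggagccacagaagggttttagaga
The Tut4, Lipc, H2afy and Cdk5r2 windows held motifs with scores of 7.92, 9.27, 6.96 and 9.24, and of the windows shown only that of Lipc held the core word AGATAA. The Tut4 window held 1 copy of the AP-1 word TGAGTCA (either strand), which no other window shown held. A word is a description of the letters and not a binding site.

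Most regions had a lower value at d4 than at d2 and a minority a higher one. Summed over all regions, the d4 column was 0.757 of the d2 column. In all, 27921 regions were lower at d4 and together lost 4184 RPM, while 14482 were higher and together gained 765 RPM. Changes below are log2(RPM + 0.03) at d4 minus d2. The median region changed by -0.24, the interquartile range was -0.64 to 0.16, and the 1st and 99th percentiles were -1.65 and 1.18. The spread of levels across regions also narrowed, from an interquartile range of 2.09 at d2 to 1.82 at d4 on the log2 scale. Regions above 1 RPM numbered 402 at d0, 3240 at d2, 1648 at d4 and 614 in XEN cells.

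For 24753 regions the deposited averages had enough digits to recover the reads of single libraries, 3 at d2 (A, B and C) and 2 at d4 (A and B), where letters only name a library. These regions lay on chromosomes 1 and 4 to 13, with 71 on chromosome 2, and had nearly the same median change as the other 17650 (-0.25 and -0.23). Reads in them numbered 1788484, 2023651 and 1542099 in the d2 libraries and 1197765 and 1210689 in the d4 libraries, with scaling totals of 206532734, 209932824 and 228832388 reads, and 187128832 and 199010798 reads, in the same order. The d2 libraries differed 1.43-fold in their summed RPM and the d4 libraries 1.05-fold. The lowest d2 sum (6847 RPM) was close to the higher d4 sum (6533 RPM), and the difference of the groups on the log2 scale was -0.39 (exact permutation test, two-sided, p = 0.2, where 3 against 2 libraries cannot go below 0.1). How many regions counted as risen or fallen therefore depended on the scaling, and results are given on the deposited scale and with each library centred on its median region.

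A region was called where limma found more than a 2-fold change with a Benjamini-Hochberg adjusted p below 0.05. On the deposited scale 520 regions were called higher at d4 (2.1% of those tested) and 2493 lower (10.1%). Centred on the medians, 1327 were higher (5.36%) and 1142 lower (4.61%). All 520 rises and all 1142 centred falls were called the same way on both scales, and 0 regions were called in opposite directions. In the averaged columns, without a test, 868 regions of all 42403 were more than 2-fold higher (2.05%) and 4314 more than 2-fold lower (10.2%), or 2287 (5.39%) and 1886 (4.45%) after centring. Of the called regions on the deposited scale, 519 rises and 2490 falls had day 4 libraries that did not overlap the day 2 libraries, as did 3376 of all 24753 tested regions upward and 9086 downward (6599 and 6481 after centring).

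The GATA6 binding groups separated the directions. Late regions, where GATA6 arrives later in the course, had a median change of 0.21 (14243 regions, interquartile range -0.11 to 0.55), and 32.9% of them were below their d2 value. Transient regions, which GATA6 leaves again, changed by -0.50 (16285 regions, -0.87 to -0.15), and 83.8% were below. Early&Constant regions, bound throughout, changed by -0.40 (11875 regions, -0.71 to -0.09), and 80.7% were below. Of the 520 called rises 496 were Late, 21 Early&Constant and 3 Transient, while the Late group made up 8159 of the 24753 tested. Of the 2493 called falls 1772 were Transient, 647 Early&Constant and 74 Late. After centring, the Late group held 1234 of the 1327 rises and 16 of the 1142 falls.

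The same order held in single libraries. The median Late region had 0.107, 0.114 and 0.0787 RPM in the d2 libraries and 0.128 and 0.126 RPM in the d4 libraries. The median Transient region had 0.145, 0.148 and 0.127 RPM at d2 and 0.0855 and 0.0854 RPM at d4. Both d4 libraries were above all d2 libraries for Late regions and below all of them for Transient regions. The class medians differed between days by 0.28 for Late (exact permutation p = 0.2) and -0.55 for Transient regions (exact permutation p = 0.1). The median Early&Constant region had 0.445, 0.486 and 0.336 RPM at d2, and 0.310 and 0.301 RPM at d4, also without overlap. Within a library the scaling cancels, and there the log2 difference Late minus Transient went from -0.40 ± 0.12 (SD, n = 3) at d2 to 0.44 ± 0.02 (n = 2) at d4, a change of 0.84. Late minus Early&Constant changed by 0.70, from -1.80 ± 0.04 to -1.10 ± 0.01. Class medians move in steps of whole reads, and 1 read was 0.0053 RPM in d4 library A. The SDs of the 2 d4 libraries, here and below, can be smaller than such a step and are not a measure of precision. For both, the exact permutation p was 0.1, the smallest that this design allows, and 0.127 when adjusted over the 19 such differences computed. Early&Constant minus Transient moved by 0.14 (exact p = 0.3), less than the SD over the d2 libraries (0.16).

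**Figure D1:**
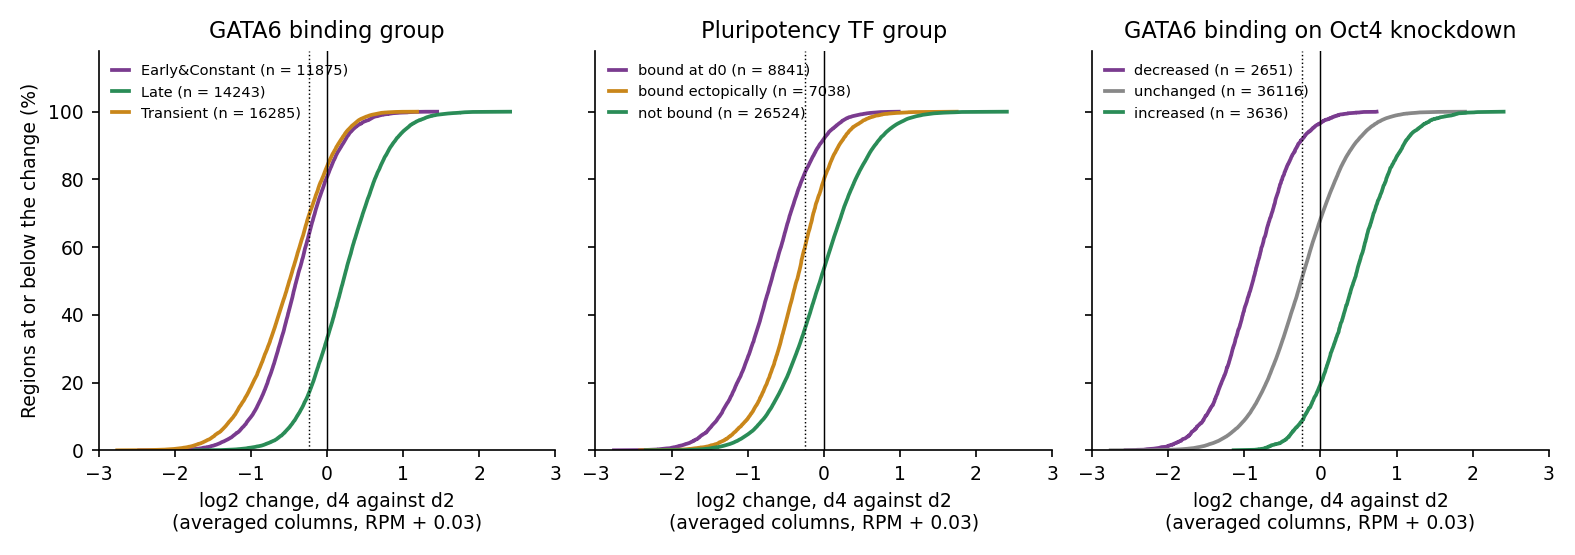
Cumulative share of regions (%) against their log2 change from d2 to d4 in the averaged columns, for the GATA6 binding groups, the pluripotency TF groups and the response of GATA6 binding to Oct4 knockdown. The solid line marks no change and the dotted line the median of all regions (-0.24). Late, unbound and knockdown-increased regions lie to the right, with medians of 0.21, -0.05 and 0.44, and Transient, d0-bound and knockdown-decreased regions to the left, with medians of -0.50, -0.69 and -0.89.

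Regions that the pluripotency factors held in ES cells had the lowest changes of the pluripotency factor groups. Regions with OCT4, SOX2 or ESRRB at d0 changed by a median of -0.69 (8841 regions), 91.9% were below d2 and 27.3% more than 2-fold below. The median such region had 0.329, 0.348 and 0.280 RPM in the d2 libraries and 0.166 and 0.161 RPM in the d4 libraries, with no overlap. limma called 1375 of the 5166 tested lower and 2 higher on the deposited scale, and 738 lower and 10 higher after centring. Regions where these factors appeared ectopically after induction changed by -0.36 (7038 regions), with 0.460, 0.514 and 0.341 RPM at d2 and 0.337 RPM in both libraries at d4. Their centred change over the libraries was -0.07 (exact p = 0.5), within the spread of the d2 libraries. Regions never bound by them had a median change of -0.05 on the deposited scale, which turned to 0.22 after centring, and they held 504 of the 520 called rises. Within a library, bound at d0 minus never bound fell from 1.33 ± 0.03 to 0.56 ± 0.02 on the log2 scale (exact p = 0.1, adjusted 0.127).

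Within each GATA6 group the order by pluripotency factors was the same. Transient regions changed by -0.73 where bound at d0, -0.68 where bound ectopically and -0.36 where never bound, and Early&Constant regions by -0.67, -0.37 and -0.22. Late regions without these factors changed by 0.26, whereas Late regions with ectopic factors were at -0.08 and the 250 Late regions bound at d0 at -0.23. The last 2 values turn positive after centring when taken over the libraries (0.20 and 0.12).

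The chromatin state in ES cells went the same way. Regions accessible at d0 changed by -0.67 (3152 regions, 31.0% more than 2-fold lower, 0 called higher), moderately accessible ones by -0.46 (13248) and closed ones by -0.07 (26003), which became 0.21 after centring. Among the ENCODE-based states, active enhancers changed by -0.67 (4730 regions), primed enhancers by -0.37, poised enhancers by -0.34, promoters by -0.32, constitutive heterochromatin by -0.12, unmarked regions by -0.06 and facultative heterochromatin by -0.02. Unmarked regions made up 156 of the 520 called rises and 16.6% of regions called in neither direction, facultative heterochromatin 37.9% of rises and 23.8%, and constitutive heterochromatin 10.8% and 10.7%. Active enhancers made up 29.5% of the called falls and 9.69% of regions called in neither direction. Transient regions accessible at d0 combined both features and changed by -0.84 (2033 regions), 41.0% of them more than 2-fold lower. Active enhancer minus facultative heterochromatin fell within a library from 1.58 ± 0.03 to 0.81 ± 0.02 (exact p = 0.1, adjusted 0.127).

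The response of GATA6 binding to Oct4 knockdown, a class made by ChIP-seq in other samples, gave the widest separation of the 19 differences computed within libraries. Regions with decreased GATA6 binding on knockdown of Oct4 had a median change of -0.89 (2651 regions), 96.6% were below d2, and 41.7% were more than 2-fold below. Regions with increased GATA6 binding on knockdown changed by 0.44 (3636 regions), 19.6% were below d2, and 13.4% were more than 2-fold above. The decreased class had 0.416, 0.455 and 0.341 RPM at its median in the d2 libraries and 0.195 and 0.186 RPM at d4. The increased class had 0.189, 0.2 and 0.122 RPM at d2 and 0.257 and 0.261 RPM at d4, so both classes had d4 libraries outside the range of d2. Class medians differed between days by -0.97 for the decreased (exact permutation p = 0.1) and 0.55 for the increased class (exact permutation p = 0.2). Of the 1570 decreased regions tested 651 were called lower and 0 higher, and of the 2126 increased regions 296 were called higher and 2 lower (after centring 358 lower and 1 higher, and 602 higher and 0 lower). The increased class thus held 296 of the 520 rises. Within a library, decreased minus increased went from 1.13 ± 0.14 to -0.39 ± 0.06, a change of -1.52 (exact p = 0.1, adjusted 0.127).

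This separation was also present inside the GATA6 groups. Decreased minus unchanged regions moved by -0.54 in Early&Constant, -0.62 in Late and -0.57 in Transient regions within libraries, and increased minus unchanged by 0.57, 0.47 and 0.34, each with exact p = 0.1 and 0.127 adjusted. The Late decreased set had 98 tested regions and the Transient increased set 26. Together with pluripotency factors, decreased regions bound at d0 changed by -1.05 (1174 regions, 55.0% more than 2-fold lower), decreased regions never bound by -0.74 (591), and increased regions never bound by 0.56 (2788, 16.9% more than 2-fold higher). Transient and decreased regions changed by -0.99 (1185) and Late and increased regions by 0.56 (2731).

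**Figure D2:**
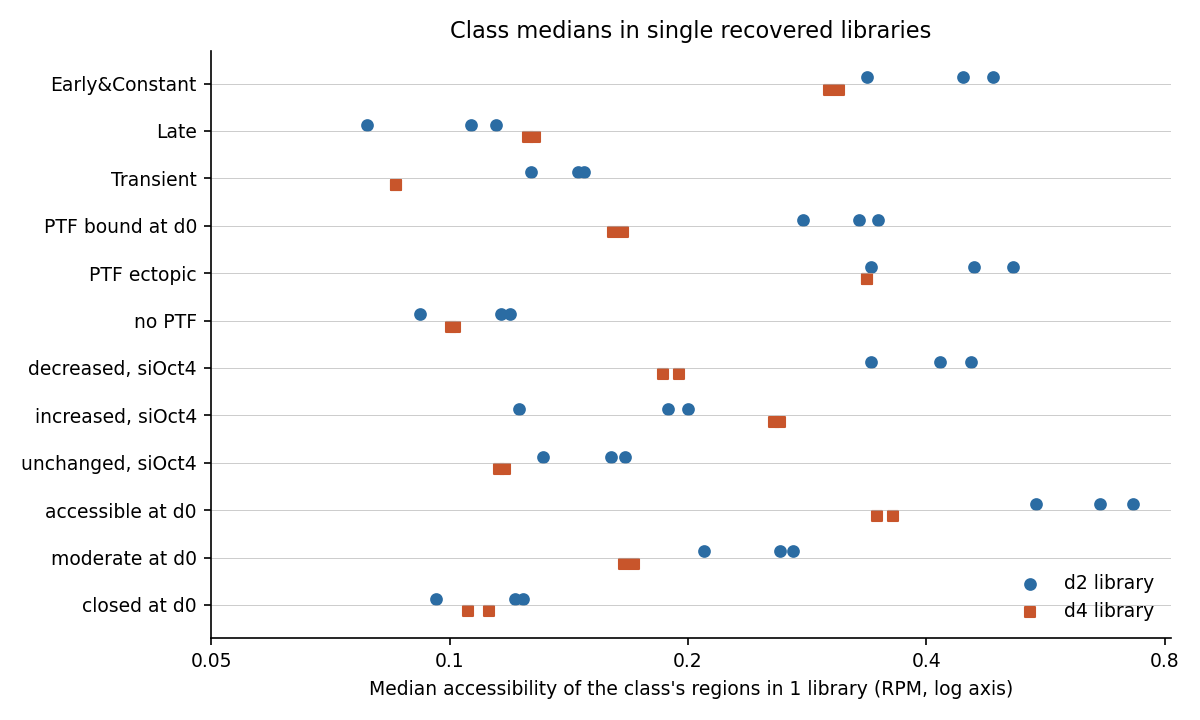
Median accessibility of each class in each of the 5 recovered libraries (RPM, log axis). Circles are d2 libraries and squares d4 libraries, and levels of different classes are not comparable because values are not divided by width. The 2 d4 libraries lie above all 3 d2 libraries for Late regions and for regions with increased GATA6 on Oct4 knockdown. They lie below them for Transient and Early&Constant regions, regions with pluripotency factors at d0 and knockdown-decreased regions, and narrowly for regions with ectopic factors.

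With SOX17 bound, larger shares of Late regions were more than 2-fold higher and larger shares of Transient regions more than 2-fold lower. Regions with and without SOX17 had median changes of -0.20 and -0.27, which were -0.27 and -0.51 over regions of at least 0.1 RPM and 0.15 and -0.11 by quantiles. Of the 520 called rises 420 had SOX17, as did 11103 of the 24753 regions tested. In the Late group 8.98% of regions with SOX17 were more than 2-fold higher and 2.26% without it. In the Transient group 36.3% of regions with SOX17 were more than 2-fold lower and 15.2% without it, with medians of -0.78 and -0.45. In the d2 libraries the median region with SOX17 was 1.07 log2 units above that without it in the Late group and 1.62 in the Transient group. The pseudocount understates changes of low regions, and the part of level in these shares was not tested. Within a library, SOX17 minus no SOX17 moved by -0.38 in Transient regions (exact p = 0.1, adjusted 0.127), by 0.17 in Late regions (exact p = 0.4) and by -0.09 in Early&Constant regions (exact p = 0.5), the last 2 within the spread of the d2 libraries. The direction for all SOX17 regions depends on scaling, since their median turned to 0.07 after centring. Combining the classes, Late regions with SOX17 and without pluripotency factors changed by 0.37 (6144 regions, 10.9% more than 2-fold higher) and held 390 of the 520 called rises. Transient regions with SOX17 and with pluripotency factors at d0 changed by -0.99 (1348 regions, 49.3% more than 2-fold lower).

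Regions with a high-scoring OCT4:SOX2 motif changed by -0.49 (2834 regions) and those with no scored motif at all by -0.16 (12101). Regions with low and mid scores are left out of this and the following pairs. For the ESRRB motif the values were -0.50 (3677) and -0.18 (27014), while the GATA6 motif gave -0.27 for high scores (11381) and -0.28 for none (4351). Within Transient regions the GATA6 motif gave -0.39 with a high score (4485) and -0.63 with none (1908). There the ESRRB motif gave -0.65 and -0.46, and the OCT4:SOX2 motif -0.52 and -0.49.

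Short words in the 301 bases around the GATA6 summit, searched on both strands, gave a description of other sequence features. The AP-1 word TGAGTCA was in 10.1% of all 42403 windows, 21.5% of called rises and 6.3% of called falls on the deposited scale, and in 12.7% of Late windows. The SOX word ACAATG was in 27.9% of all windows, 43.8% of rises, 22.5% of falls and 35.0% of Late windows. The forkhead word TGTTTAC was in 7.94%, 14.4%, 5.98% and 11.4%. Of the called rises 95.4% were Late and of the falls 71.1% Transient. A share among rises is therefore read beside that of Late windows, and a share among falls beside that of Transient windows, given below. The E-box word CACCTG, in 22.2% of all windows and 16.2% of Late windows, was in 17.5% of rises and 33.1% of falls, and the ESRRB word TCAAGGTCA, in 1.57%, was in 0.192% of rises, 3.53% of falls and 0.463% of Late windows. In the same order, the octamer ATGCAAAT was in 3.73%, 0.385%, 5.42% and 1.25%, the KLF word CCACACCC in 5.83%, 3.27%, 8.70% and 4.46%, and the TEAD word CATTCC in 24.8%, 26.3%, 29.6% and 21.8%. The GATA word AGATAA was in 58.1% of all windows, 51.0% of rises, 47.5% of falls and 52.2% of Late windows. The HNF4 word CAAAGTCCA (0.722%, 1.54%, 0.481%) and the HNF1 word GTTAAT (12.7%, 11.9%, 12.4%) were the remaining words searched. Within the Late group AP-1 was in 17.99% of the rises called after centring and 12.2% of Late regions called in neither direction, the SOX word in 41.0% and 33.6%, the forkhead word in 13.5% and 11.9%, and the E-box word in 16.1% and 16.2%. In Transient windows AP-1 was in 7.77%, SOX in 20.0%, forkhead in 4.86%, E-box in 28.0% and ESRRB in 2.71%. The octamer was there in 6.12%, KLF in 6.62%, TEAD in 25.4% and GATA in 54.8%. Within the Transient group the E-box word was in 36.7% of centred falls and 27.4% of regions called in neither direction. In the same order GATA was in 37.6% and 57.3% and ESRRB in 4.04% and 2.64%. The octamer was in 6.00% and 5.71% and KLF in 7.39% and 6.97%. The median GC content was 44.2% for rises, 48.5% for falls and 45.5% for all windows.

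Read against d0, falls were of several kinds. Of the 4314 regions more than 2-fold lower at d4 than at d2 in the averaged columns, 1475 (34.2%) had been more than 2-fold above d0 at d2 and were back within 2-fold of it at d4, and 241 (5.59%) were still above it. Another 1346 (31.2%) had been within 2-fold of d0 at d2 and were more than 2-fold below it at d4. A further 1185 (27.5%) were within 2-fold of d0 on both days, 61 were below d0 on both, and 6 went from above it to below it. Of the 868 regions more than 2-fold higher, 614 (70.7%) were within 2-fold of d0 at d2 and above that at d4, 181 (20.9%) were above it on both days, and 73 were within 2-fold on both. Of the 37221 regions past 2-fold in neither direction, 26.6% were above d0 on both days and 10.2% came back within 2-fold of it. A further 52.6% were within 2-fold on both days, 3.23% went from there to below d0 and 5.91% to above it. Choosing regions by a 2-fold change favours such moves, so the shares are only a description. After centring, the share of falls that came back from a gain was 10.8% (203 of 1886), and 909 (48.2%) went from within 2-fold of d0 to below it. Of the 2287 centred rises 969 (42.4%) went from within 2-fold of d0 to above it, and 1029 (45.0%) were within 2-fold on both days. Among the 38230 centred regions past 2-fold in neither direction, 3.26% came back from a gain. Another 5.45% went from within 2-fold of d0 to below it, 4.24% to above it, and 62.6% were within 2-fold on both days.

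The called sets were followed over the course, each set against its own earlier level. Of the called falls 24.1% were accessible at d0, 47.5% moderate and 28.4% closed, and of the called rises 92.5% were closed. The median called fall had 0.239 RPM at d0, 0.225 at 8 h, 0.258 at 16 h, 0.348 at d1, 0.393 at d2 and 0.133 at d4. The median called rise had 0.0442 RPM at d0, 0.0533 at 8 h, 0.0430 at 16 h, 0.0495 at d1, 0.0762 at d2 and 0.222 at d4. In XEN cells these sets were at 0.110 and 0.238 RPM. The d2 and d4 values chose the sets, so their d2 level is extreme by choice and where the other columns lie relative to it is only a description.

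**Figure D3:**
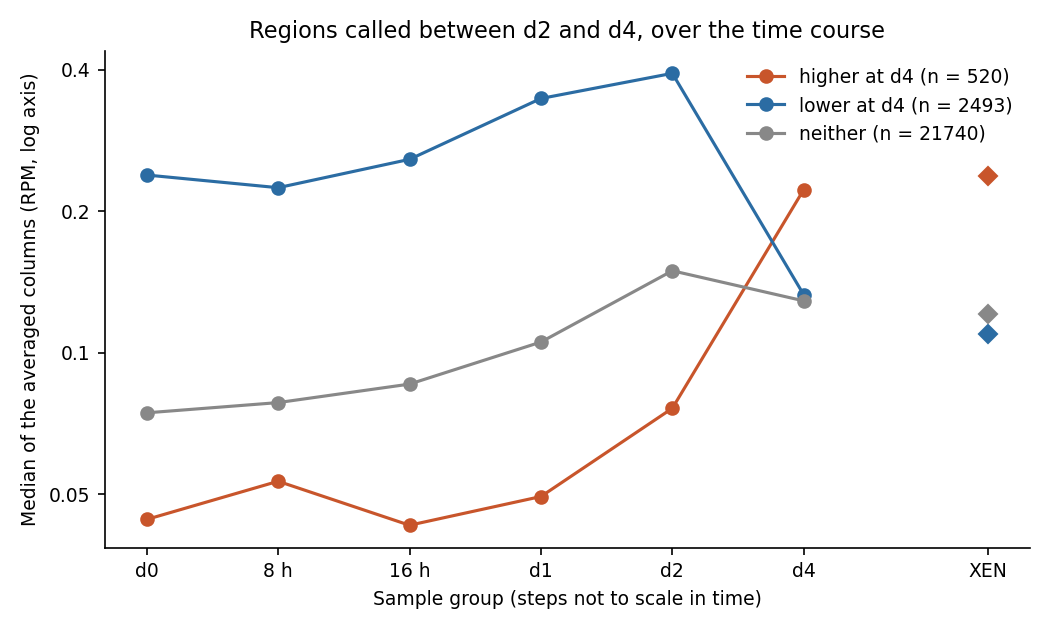
Median accessibility (RPM, log axis) of the regions called higher, lower or neither between d2 and d4 on the deposited scale, over the averaged columns of the course and in XEN cells (diamonds). Falls went from 0.239 RPM at d0 over 0.393 RPM at d2 to 0.133 RPM at d4, rises from 0.0442 over 0.0762 to 0.222 RPM, and XEN cells were at 0.110 and 0.238 RPM.

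The neighbouring steps gave other patterns for the same classes, here as changes relative to the median of all regions. The steps share the d2 or the d4 column, so they are only set side by side. Early&Constant regions moved by 0.35 from d1 to d2, -0.16 from d2 to d4 and -0.36 from d4 to XEN cells. Late regions moved by 0.16, 0.45 and 0.16, and Transient regions by -0.44, -0.26 and 0.13. Regions with ectopic pluripotency factors moved by 0.63, -0.12 and -0.49. Regions with decreased GATA6 on Oct4 knockdown moved by 0.21, -0.65 and -0.41, and those with increased GATA6 by 0.40, 0.68 and 0.03.

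The median distance to the nearest protein-coding gene start was 42.0 kb for called falls, 27.4 kb for called rises and 27.9 kb for regions called in neither direction. Regions within 1 kb of a start changed by -0.22 with 5.17% more than 2-fold lower, and those beyond 200 kb by -0.32 with 13.4%. Of the falls 46.7% were intergenic and 45.9% intronic, of the rises 37.9% and 56.0%, and of regions called in neither direction 38.1% and 50.5%. Promoters made up 5.01% of falls, 1.73% of rises and 8.94% of regions called in neither direction. Region width moved with the change, from a median of -0.06 in the narrowest regions (172 to 369 bases) to -0.45 in the widest (778 to 5381 bases), and the median called fall was 663 bases wide and the median called rise 523. The part of width in these differences was not tested. Chromosomes were alike, with medians between -0.29 and -0.17 for chromosome X and the numbered chromosomes.

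The largest rises were closed Late regions with SOX17 and without pluripotency factors. The region 11.2 kb upstream of the start of Tut4, which encodes a terminal uridylyltransferase, had 0.0533, 0.1 and 0.0524 RPM in the d2 libraries and 0.513 and 0.472 RPM in the d4 libraries. Its change was 2.44 ± 0.30 (SE, limma adjusted p = 5.59e-13), and it was at 0.0481 RPM at d0 and 0.996 RPM in XEN cells. The region 50.9 kb upstream of Fras1, which encodes a basement membrane protein, had 0.0484, 0.110 and 0.0393 RPM at d2 and 0.470 and 0.452 RPM at d4 (2.43 ± 0.30, limma adjusted p = 9.05e-13). The intronic region 62.5 kb into Lipc, the hepatic lipase gene, went from 0.15, 0.167 and 0.105 RPM to 0.764 and 0.744 RPM (2.22 ± 0.29, limma adjusted p = 1.41e-11) and was at 1.34 RPM in XEN cells. In these 3 regions every d4 library was more than 4 times as high as every d2 library. The next were upstream of Actn1, an actin cross-linking protein (2.05), upstream of Sectm1a (1.98), in Phlpp1, a phosphatase gene (1.92), upstream of Zfp644 (1.91) and upstream of Tbpl1, a relative of the TATA-binding protein (1.87). In Sectm1a the d2 libraries themselves spread from 0.0306 to 0.143 RPM, below the 0.406 and 0.467 RPM of d4. The Sectm1a SE was 0.296, beside 0.298 for Tut4, so it followed variance shared over regions more than the spread of these libraries. All 8 were Late, closed at d0, bound by SOX17 and free of pluripotency factors, and 6 had increased GATA6 on Oct4 knockdown.

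The largest falls were regions of pluripotency factors. The region 95.5 kb upstream of Ptch1, the Hedgehog receptor gene, had 0.712, 0.715 and 0.441 RPM at d2 and 0.0428 and 0.0904 RPM at d4 (-2.77 ± 0.29, limma adjusted p = 1.53e-17). The region 7.0 kb upstream of H2afy, which encodes the histone variant macroH2A1, had 0.872, 0.996 and 0.760 RPM at d2 and 0.123 and 0.111 RPM at d4 (-2.62 ± 0.28, limma adjusted p = 1.84e-16). The region 29.9 kb upstream of Cdk5r2, a regulatory subunit of CDK5, had 0.717, 0.876 and 0.804 RPM at d2 and 0.0855 and 0.136 RPM at d4 (-2.58 ± 0.28, limma adjusted p = 6.13e-16). In each the 2 d4 libraries lay far below the 3 d2 libraries. Centred, the Ptch1 region changed by -2.51 ± 0.23 (limma adjusted p = 1.31e-13). The others were next to Atp6ap1l (-2.46), Mterf1a (-2.44), Chordc1, an HSP90 co-chaperone (-2.41), Megf6 (-2.39) and Cacng7, a calcium channel subunit (-2.37). Of the 8 falls 7 had pluripotency factors at d0 and the Megf6 region had them ectopically, 7 were Transient, 6 were accessible at d0 and 7 had SOX17. Their XEN levels were between 0.0283 and 0.141 RPM. The added read sets a higher floor there, with a lowest value of 0.0133 RPM against 0.0052 RPM at d4, as 1 XEN library had only 43316058 reads. The XEN averages solved as 2 libraries, although 3 samples are titled so.

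**Figure D4:**
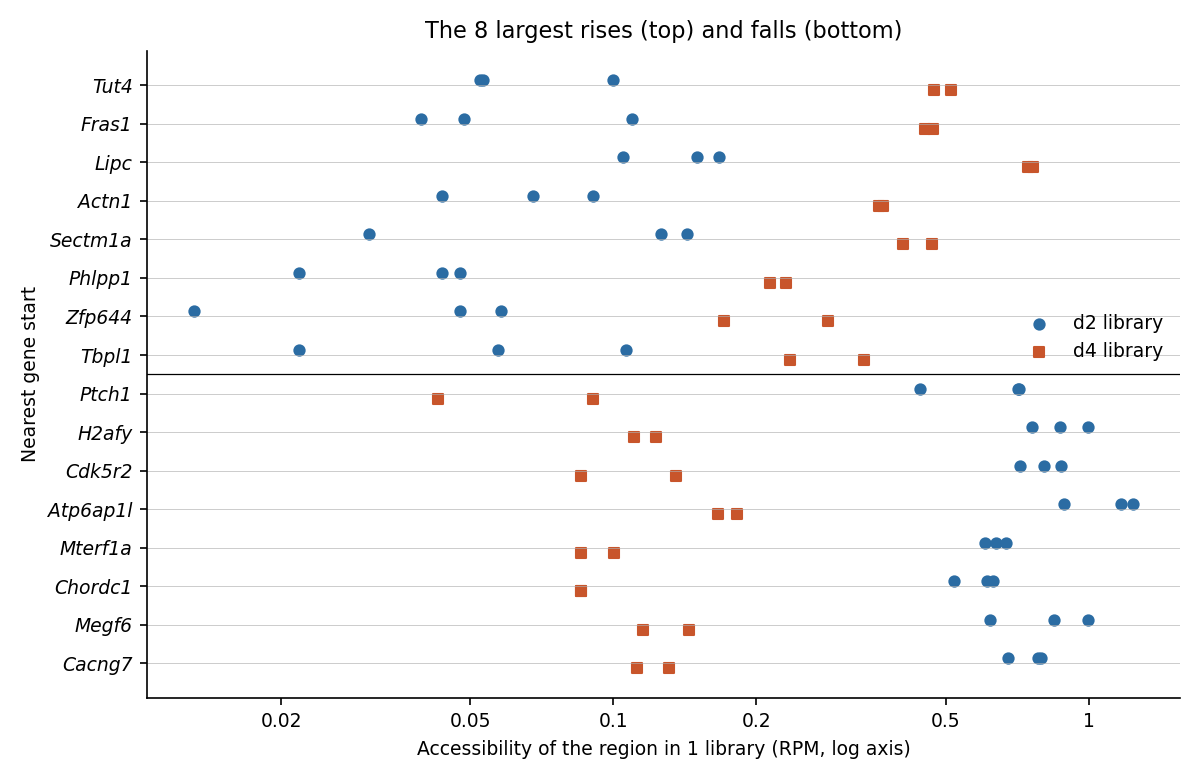
Accessibility (RPM, log axis) of the 8 regions with the largest called rises and the 8 with the largest called falls, in each d2 library (circles) and d4 library (squares), named by the nearest protein-coding gene start. In all 16 the d2 and d4 libraries do not overlap, with rises of 1.87 to 2.44 and falls of 2.37 to 2.77 on the log2 scale.

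A few regions went against their group. Among Early&Constant regions the largest rise was 58.9 kb upstream of Arhgdib, at 0.257, 0.267 and 0.149 RPM at d2 and 0.625 and 0.543 RPM at d4 (1.31 ± 0.28, limma adjusted p = 0.000103). It was followed by regions next to Otud3, a deubiquitinase gene (1.22), and Ankfy1 (1.16), whose call was lost without d4 library B (limma adjusted p = 0.079). The largest Early&Constant falls after Atp6ap1l were in Nt5e, which encodes the ecto-nucleotidase CD73 (-2.11), and Nmnat2 (-2.08). Among Late regions the largest fall was 72.8 kb upstream of Gpr6, where the level had gone from 0.0655 RPM at d0 to 1.07, 1.13 and 0.717 RPM in the d2 libraries and was 0.283 and 0.261 RPM at d4 (-1.70 ± 0.28, limma adjusted p = 1.53e-07). Late regions in A830018L16Rik (-1.55) and Psd3 (-1.48) followed. The 3 called Transient rises were next to Morf4l1 (1.09), Zfp780b (1.09) and Tmppe (1.06), and rested on few reads (2, 2 and 4 at d2 against 11 and 13 at d4 in Tmppe). Each of these 3 calls was lost when 1 d4 library was left out (limma adjusted p of 0.107, 0.148 and 0.0635).

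Genes were assigned by the nearest protein-coding start within 50 kb, a rule of distance that does not show which gene a region acts on. Regions next to pluripotency genes had lower medians than all regions (-0.24). In the core list (Pou5f1, Sox2, Nanog and their partners) the median of 45 regions was -0.63, with 13 more than 2-fold lower and 0 higher, and limma called 7 of 27 tested lower and 0 higher. In the naive list (20 genes) the median of 135 regions was -0.56, with 27 more than 2-fold lower and 0 higher, and 19 of 87 tested were called lower and 0 higher. Over all regions tested the shares called were 10.1% lower and 2.1% higher. The lists held 5 and 8 centred falls and 0 centred rises.

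Of the 5 core genes with the strongest regions, 4 were tested and that of Nanog was called. The region 4.7 kb upstream of Nanog had 1.69, 1.93 and 1.64 RPM at d2 and 0.566 and 0.508 RPM at d4 (-1.65 ± 0.28, limma adjusted p = 3.21e-07). The strongest regions next to Dppa5a, Utf1 and Lin28a changed by -0.53, -0.59 and -0.59 with limma adjusted p of 0.151, 0.102 and 0.102. The Sall4 region, with averages only, went from 2.89 to 1.92 RPM. Regions next to Pou5f1 (OCT4), Sox2, Tdgf1 and Esrrb were picked after their values were seen. The strongest Pou5f1 region went from 1.30 to 0.450 RPM and 3 of its 5 regions were more than 2-fold lower, and the strongest Sox2 region went from 0.449 to 0.197 RPM with 2 of 4 regions more than 2-fold lower. Of the regions next to Tdgf1, which spanned -1.59 to 0.59, the strongest had 0.804, 0.729 and 0.717 RPM at d2 and 0.246 and 0.211 RPM at d4 (-1.59). Next to Esrrb the strongest region had the lowest change of the list, with 0.615, 0.805 and 0.468 RPM at d2 and 0.134 and 0.106 RPM at d4 (-2.11 ± 0.28, limma adjusted p = 8.65e-11).

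Naive genes were uneven. The promoter region of Klf4 had 2.2, 2.07 and 1.35 RPM at d2 and 1.81 and 1.71 RPM at d4, and its change of -0.06 was within the spread of the d2 libraries (limma adjusted p = 0.902) and turned to 0.20 after centring. The strongest region next to Mycn, a MYC family gene, had 2.80, 3.26 and 2.27 RPM at d2 and 1.46 and 1.62 RPM at d4, and its change of -0.82 had a limma adjusted p of 0.0192 and missed the limit on size. In averages, the strongest regions next to Il6st, the gp130 subunit of the LIF receptor, Klf5 and Fbxo15 went from 2.66 to 1.94 RPM, from 2.13 to 1.75 RPM and from 2.42 to 1.38 RPM. The strongest region of Tfcp2l1, a gene picked after its values were seen, had 2.69, 2.59 and 2.45 RPM at d2 and 0.855 and 0.894 RPM at d4 (-1.53 ± 0.28, limma adjusted p = 3.01e-06). The formative and primed list (23 regions, median -0.37, 4 more than 2-fold lower and 1 higher) had 2 of 9 tested regions called lower, next to Pou3f1 (1.57, 1.89 and 1.19 RPM against 0.834 and 0.643 RPM, -1.03, limma adjusted p = 0.00227) and Fgf5 (-1.16). After centring 0 of the 9 were called, and the Pou3f1 call was also lost without either d4 library (limma adjusted p = 0.0556 and 0.216), without d2 library A or B and with all libraries in the fit. The strongest regions of Otx2, Grhl2, Lef1 and Dnmt3a changed by -0.55, -0.67, -0.31 and -0.85.

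For endoderm transcription factors the median of 86 regions was -0.20, against -0.24 for all regions, with 7 more than 2-fold lower and 3 higher, and 3 of 28 tested were called lower and 0 higher, or 1 lower and 2 higher after centring. The strongest region of Gata6 itself, at its promoter, was at 3.42 RPM at d2 and 3.49 RPM at d4. The Sox17 region 40.4 kb upstream had 3.02, 4.34 and 2.62 RPM at d2 and 2.66 and 2.02 RPM at d4 (-0.48 ± 0.28, limma adjusted p = 0.205), with overlap. The Gata4 and Foxa2 regions went from 2.54 to 1.58 RPM and from 2.0 to 1.73 RPM. Other regions of these genes went either way, and the 10 regions of Gata4 spanned -1.19 to 1.04 and the 16 of Foxa2 -0.97 to 1.34.

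Genes listed under basement membrane and endocytosis, functions of the early endoderm, had medians of -0.06 (109 regions) and -0.10 (50). Not every listed gene has that function, as Srgn encodes a granule proteoglycan and Clic6 a chloride channel protein. Of 74 tested basement membrane regions 1 was called higher and 0 lower, and after centring 4 were higher and 0 lower. The strongest regions of Col4a2, Serpinh1, Lamc1, Hspg2 and Srgn changed by -0.39, -0.30, -0.26, -0.57 and -0.12 with limma adjusted p between 0.123 and 0.787. Col4a2, a collagen IV chain, had 4.35, 5.65 and 3.35 RPM at d2 and 3.52 and 3.11 RPM at d4, with overlap. Centring turned Lamc1 to 0.0049 and Srgn to 0.14. Among endocytosis genes the Lgmn region, next to the lysosomal protease legumain, had 2.08, 2.28 and 1.32 RPM at d2 and 2.53 and 2.39 RPM at d4 (0.41, limma adjusted p = 0.287). The Folr1 region, next to a folate receptor gene, had 2.29, 2.67 and 1.79 RPM at d2 and 0.914 and 0.945 RPM at d4 and was called lower (-1.23 ± 0.28, limma adjusted p = 0.000218). That call was lost after centring (-0.97) and without either d4 library (limma adjusted p = 0.0679 and 0.0578). Clic6, Amn and Ctsl were at -0.26, -0.69 and -0.41 in the averages.

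Receptor and signalling genes, listed here for the primitive endoderm and not all particular to it, had a lower median than the other endoderm lists. Their 84 regions had a median of -0.55, with 17 more than 2-fold lower and 2 higher, and limma called 8 of 47 lower and 2 higher, or 3 lower and 3 higher after centring. The strongest regions were next to Spry2, an inhibitor of receptor tyrosine kinase signalling (4.42 to 3.19 RPM), Dkk1, a WNT antagonist (3.47 to 1.88 RPM), Pdgfra, the PDGF receptor that marks the primitive endoderm, Spry4 (1.76 to 1.27 RPM) and Bmp2 (1.23 to 1.44 RPM). The Pdgfra region had 3.18, 3.55 and 2.17 RPM at d2 and 2.2 and 2.19 RPM at d4 (-0.40, limma adjusted p = 0.302), with overlap. The genes with a region more than 2-fold lower were Bmp4, Cer1, Dkk1, Dusp6, Etv5, Fgfr1, Fgfr2, Kit, Lefty1, Spry2 and Spry4. These genes were listed by their falls, and several (Dusp6, Etv5, Spry2 and Spry4) are known targets of FGF signalling. The strongest regions of Etv5, Bmp4, Cer1 and Lefty1 changed by -1.61, -1.59, -1.48 and -1.39 in the averages. These 4 regions had pluripotency factors at d0, while that of Fgfr1 (-1.10) had none. After centring 10 regions of the list were more than 2-fold lower and 4 higher, the latter next to Dusp6, Etv5, Kit and Pth1r.

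The other lists were mixed. The visceral endoderm list, mostly genes of secreted proteins, had a median of -0.38 (29 regions). Of these regions 9 were next to Amot, whose product is not secreted, and had a median of -0.68. In the list 1 region was more than 2-fold higher, next to Ttr, whose 8 regions spanned -0.43 to 1.70, and 1 lower, next to Amot. The list's strongest regions, next to Ttr, Amot, Apoe, Spink1 and Apoa4, changed by -0.43, -0.63, -0.92, -0.39 and 0.21. Epithelial and adhesion genes had a median of -0.25 (31 regions, 3 more than 2-fold lower and 0 higher), and the promoter region of Cdh1, E-cadherin, had 2.53, 2.83 and 1.86 RPM at d2 and 1.30 and 1.47 RPM at d4 (-0.77, limma adjusted p = 0.0299). Epcam, Krt18, Krt8 and Snai1 were at -0.58, 0.03, -0.41 and -0.26. Parietal endoderm genes had a median of -0.13 (31 regions), with 2 of 22 tested called higher and 0 lower, while their strongest regions, next to Sparc, Pth1r, Lamb1, Plat and Snai1, were at -0.21, -0.24, -0.13, -0.23 and -0.26 on the deposited scale and above 0 after centring.

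**Figure D5:**
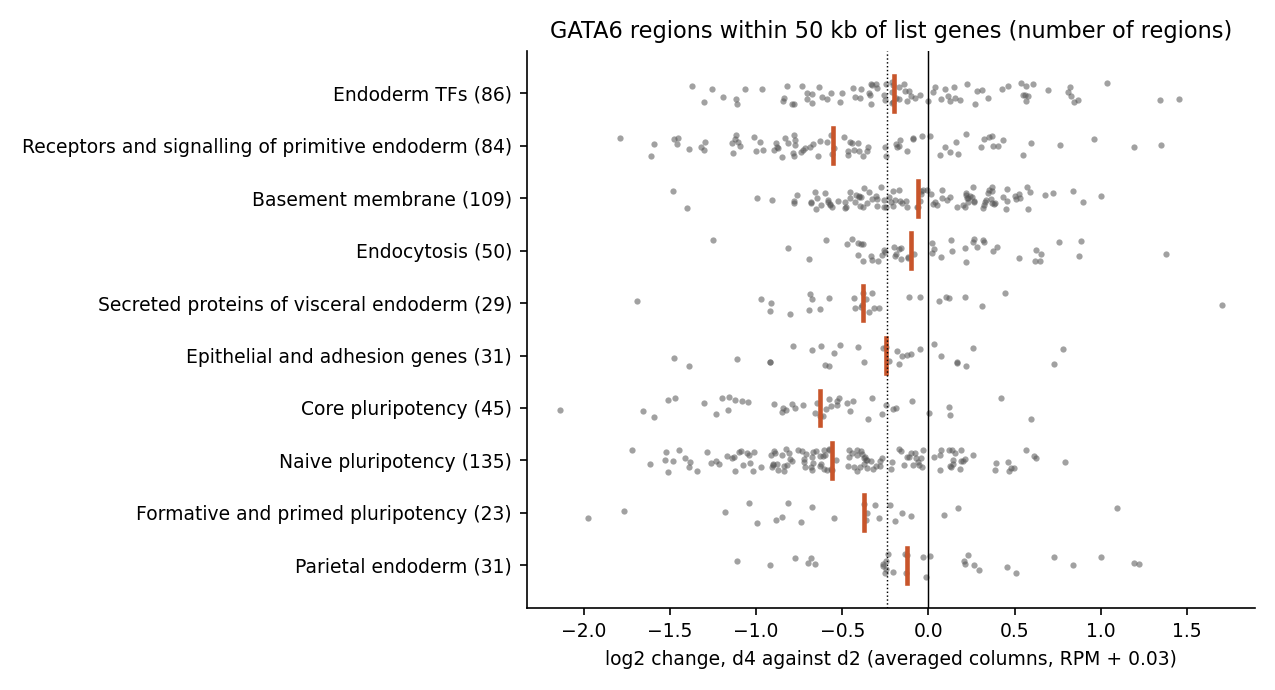
Log2 change from d2 to d4 in the averaged columns of every GATA6 region within 50 kb of a gene of each list, 1 point per region, with the list's median as a bar. The dotted line is the median of all regions (-0.24). Core and naive pluripotency genes (-0.63 and -0.56) and signalling genes (-0.55) lie to its left, and basement membrane genes (-0.06) to its right.

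Markers of other cell types were low in number here. Of 10 feeder fibroblast genes 8 had regions, 13 in all, with a median of -0.26, 1 of them more than 2-fold lower and 0 higher, and the 9 tested summed to between 2.23 and 3.41 RPM in the d2 libraries and 2.11 RPM in both d4 libraries. Trophoblast (21 regions), mesoderm (8) and neural markers (4) had medians of -0.22, -0.42 and -0.23, with 3, 1 and 0 regions more than 2-fold lower and 0 higher. Primitive endoderm markers had a median of -0.16 (72 regions, 2 more than 2-fold lower and 2 higher) and ES cell markers -0.73 (45 regions, 17 lower and 0 higher). The part of feeders in the changes was not tested.

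Single loci could lose and gain at once. Of the 6715 genes with a tested region within 50 kb, 299 had a called rise, 1131 a called fall and 21 both, or 751, 531 and 31 after centring. Kit, the receptor of stem cell factor, had 8 regions between -1.12 and 1.35, and Sox13 had 8 between -1.26 and 1.57 with 2 rises and 1 fall, and neither locus had a centred fall. Larp1, with 6 regions between -1.86 and 1.08, and Tbpl1, with 5 between -1.35 and 1.78, had 1 call in each direction on both scales. These loci were picked after their values were seen. Of the loci with most falls, Slc25a13 had 5 called of 8 regions (median -1.19) and Hspb8 4 of 9. Abhd5 had 3 called rises among 7 regions (median 0.85), and Sectm1a had 3 among 4.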

How the data were processed

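ATAC-seq of d2 (3 samples) and d4 (2 samples) cells was analysed over all 42403 GATA6 binding regions of 1 deposited table. Per the methods and labels, the authors trimmed reads with cutadapt, aligned them with Bowtie2 to mm10, filtered them with SAMtools, shifted ends for Tn5 and counted short fragments. Versions are not given in the sources used here. The deposited values are RPM per region, averaged by the authors over the libraries of a group after 1 read was added to each count. The motif score of each region is the authors' best match as deposited, and region classes are theirs, from k-means of GATA6 ChIP-seq, peak calls and ENCODE data. The limits of their accessibility and motif score groups are not given in the sources used here. In all, 52 other per-sample columns were not used.

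Averages with at least 12 digits (24753 regions) were solved for the whole reads of each library (tolerance 1e-09 reads, 100% solved), and letters only name libraries. Changes were taken as log2(RPM + 0.03), which understates changes of low regions, raw and centred on medians. limma 3.58.1 in R 4.3.3, with an intensity trend, tested d4 against d2 (Benjamini-Hochberg adjusted p below 0.05 and over 2-fold), and class medians over libraries were compared by two-sided exact permutation tests. Methods describe the replicates as separate cultures. On simulated data for this comparison, with 24753 regions, the centred fit called 79% of changes of 1.5 and 97% of 2.5 log2 units and 0 unchanged regions, and the fit as deposited called 68%, 100% and 39 regions. Nearest protein-coding starts were taken from GENCODE M21 and sequences from the RefSeq mm10 genome with pysam 0.24.0. numpy 2.4.6, pandas 2.3.3, scipy 1.17.1 and matplotlib 3.10.9 were used. Named regions were the 8 largest called rises and falls, the 3 largest in each GATA6 group and direction, and, per gene list, the 5 genes with the highest mean region. The comparison, gene lists and words were chosen with earlier results of these data known, so list counts are read only against all regions. Precision is limited by the number of libraries and by a median of 24 to 37 reads per region. Some items that the naming rule picks are not reported here.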

Additional observations from a re-analysis of the deposited data

How the results depend on the processing

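No paired analysis was possible because the columns are averages and carry no replicate number. Counts followed the scaling and the pseudocount. The 520 higher, 2493 lower and 3013 regions called by limma in all became 1327 and 1142 after centring, 1199 and 1162 after quantile normalisation, and 1338, 5016 and 6354 with no limit on size. With voom 1073 were higher and 4535 called in all. A pseudocount of 0.006 RPM gave 1000 higher and 4543 in all, and 0.15 RPM gave 51, 719 and 770. The 868 higher, 4314 lower and 5182 averaged regions past 2-fold became 2287 and 1886 centred and 1894 and 1807 quantile-normalised. At 0.006 RPM 2015 were higher and 8351 changed, and at 0.15 RPM 86, 1210 and 1296. Leaving out 1 library gave 369 to 742 higher, 1740 to 3268 lower and 2161 to 3637 in all, and after centring 1274 to 1445, 1158 to 1338 and 2566 to 2713.

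Class medians moved most with scaling. Early&Constant went from -0.40 to -0.13 centred and -0.048 by quantiles, and Late from 0.21 to 0.49 centred. Transient went from -0.50 to -0.22 and -0.31, to -0.62 and -0.26 at 0.006 and 0.15 RPM, and to -0.72 over regions of at least 0.1 RPM. Regions with pluripotency factors at d0 went to -0.42, -0.39 and, at 0.15 RPM, -0.45, and knockdown-decreased regions to -0.62, -0.57 and -0.62. Accessible regions went to -0.40 and -0.32, moderate ones to -0.19 and -0.17, and unchanged ones by quantiles to -0.019. Regions without SOX17 went to -0.11 by quantiles, -0.13 at 0.15 RPM and -0.51 over regions of at least 0.1 RPM. The sign turned for ectopic regions by quantiles (0.0044), for regions without pluripotency factors (0.22 centred, 0.13 by quantiles, 0.18 over libraries), SOX17 regions (0.071, 0.15 and 0.040), regions without SOX17 (0.0031 centred), closed regions (0.21, 0.12 and 0.22, and 0.0083 without d2 library B) and unchanged regions (0.018 centred). The cause was not tested.

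Without 1 library, Late medians differed by 0.16 to 0.37, Transient by -0.61 to -0.52, Early&Constant by -0.56 to -0.31, d0-bound by -0.93 to -0.79, ectopic by -0.49 to -0.22, unbound by -0.17 to -0.03, decreased by -1.08 to -0.88 and increased by 0.36 to 0.66. Within libraries, Late minus Transient stayed between 0.77 and 0.89, and decreased minus increased between -1.57 and -1.44.

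For the 54 named regions, 544 of 594 alternative values kept direction and call, 28 lost the call, 1 gained it and 21 turned sign, all in regions without a call. By quantiles these were Pdgfra (0.0033), Serpinh1 (0.053), Lamc1 (0.16), Srgn (0.28), Ctsl (0.0065), Klf4 (0.35), Sparc (0.27), Pth1r (0.22), Lamb1 (0.34) and Plat (0.24). Centring turned Lamc1 (0.0049), Srgn (0.14), Klf4 (0.20), Sparc (0.10), Pth1r (0.050), Lamb1 (0.15) and Plat (0.062). Without d2 library B, Srgn was 0.032, Klf4 0.027 and Lamb1 0.0039. Leaving out 1 library gave -0.34 to 0.032 for Srgn, -0.27 to 0.070 for Klf4 and -0.27 to 0.0039 for Lamb1, the highest Klf4 value without d2 library A and the lowest values without d2 library C.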
